A study of Mus musculus with 4 samples.

Results

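Mmp12, Mmp14, Mmp8, Timp2, Fn1, Thbs1, Col14a1, Tgfbi, Ecm1 and Vcan are 10 of the 31253 genes in the expression tables of this study. They were chosen by name as genes of the extracellular matrix and of its remodelling, and each of the 10 symbols matched 1 row. The choice was made with earlier results of these data known, so their shares beside those of all genes are a description. Their transcripts were followed by single-cell RNA sequencing through the leukocytes of CT2a tumours, a mouse glioma line grown in the brain, in wild-type (WT) mice and in mice lacking calcium/calmodulin-dependent kinase kinase 2 in every cell (CaMKK2 KO). Both groups were adult female mice on the C57Bl/6 background that bore the same tumour and were sampled on day 14 after implantation, with no drug named in the labels. The CaMKK2 KO mice carried a germline deletion, so tumour leukocytes and all other host cells lacked the gene while the implanted tumour cells did not. Live CD45+ cells of 4 mice per genotype were marked with hashtag antibodies and loaded as 1 droplet library per genotype. An effect of the genotype and an effect of the library therefore cannot be told apart in any comparison of WT and CaMKK2 KO mice.

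The extracellular matrix is a meshwork of collagens, glycoproteins and proteoglycans that fills the space around cells and stores growth factors. Matrix metalloproteinases cut its proteins, tissue inhibitors of metalloproteinases restrain those enzymes, and matricellular proteins such as thrombospondin pass signals from the matrix to cells without bearing load. In gliomas, monocytes that enter from the blood become macrophages, while microglia are the resident phagocytes of brain tissue, and both cell types are known sources of matrix proteases and of matrix glycoproteins.

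The genes lie on 8 chromosomes of the mm10 (GRCm38) genome, as annotated by GENCODE. Fn1 (ENSMUSG00000026193) is at chr1:71585520-71653200, Thbs1 (ENSMUSG00000040152) at chr2:118111876-118127133 and Ecm1 (ENSMUSG00000028108) at chr3:95734147-95739569. Mmp12 (ENSMUSG00000049723) at chr9:7344381-7369499 and Mmp8 (ENSMUSG00000005800) at chr9:7558456-7568485 share 1 metalloproteinase cluster on chromosome 9. Timp2 (ENSMUSG00000017466) is at chr11:118301069-118355740, Mmp14 (ENSMUSG00000000957) at chr14:54431612-54445364 and Col14a1 (ENSMUSG00000022371) at chr15:55307750-55520803. Tgfbi (ENSMUSG00000035493, chr13:56609523-56639562) and Vcan (ENSMUSG00000021614, chr13:89655312-89742509) are both on chromosome 13.

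Promoter sequence was at hand in RefSeq (GRCm38.p6) for 7 of the 10 genes, and not for Fn1, Thbs1 and Col14a1. The 250 bases before the transcription start of RefSeq are shown for Ecm1 and Vcan, which were both lower in CaMKK2 KO monocyte-like cells. Those of Tgfbi are set beside them, as a gene at about the same level in both genotypes. For Tgfbi the RefSeq start lies inside the GENCODE gene given above, so the end of its window overlaps that gene. Each sequence is read 5′ to 3′ on the strand of its gene, and capitals mark the motifs searched on both strands. They were a TATA box (TATAAA, in 12.4% of the 32851 promoter windows of this length), an AP-1 site (TGANTCA, 6.75%), a CRE (TGACGTCA, 1.55%), a GC box (GGGCGG, 32.7%) and an E-box (CACGTG, 6.02%).
Ecm1, chr3:95739570-95739819, minus strand: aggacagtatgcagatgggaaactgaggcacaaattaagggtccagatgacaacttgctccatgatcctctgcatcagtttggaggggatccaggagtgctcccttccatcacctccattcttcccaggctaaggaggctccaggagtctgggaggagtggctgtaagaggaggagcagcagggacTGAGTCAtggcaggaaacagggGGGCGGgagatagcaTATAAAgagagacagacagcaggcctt
Vcan, chr13:89742513-89742762, minus strand: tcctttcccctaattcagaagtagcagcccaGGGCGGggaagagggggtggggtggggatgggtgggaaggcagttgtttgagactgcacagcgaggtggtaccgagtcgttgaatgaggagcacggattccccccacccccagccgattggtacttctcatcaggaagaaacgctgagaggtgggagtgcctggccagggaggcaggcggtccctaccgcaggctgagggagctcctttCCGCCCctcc
Tgfbi, chr13:56609336-56609585, plus strand: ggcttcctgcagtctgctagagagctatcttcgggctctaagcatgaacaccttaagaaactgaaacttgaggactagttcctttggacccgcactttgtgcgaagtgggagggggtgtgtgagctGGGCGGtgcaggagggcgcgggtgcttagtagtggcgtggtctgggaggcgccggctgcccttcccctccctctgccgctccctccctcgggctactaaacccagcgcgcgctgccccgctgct
The Ecm1 window held an AP-1 site 64 bases, a GC box 42 bases and a TATA box 27 bases upstream of the start. The Vcan window held GC boxes 219 and 10 bases upstream, the nearer one read on the opposite strand, and the Tgfbi window held 1 GC box 124 bases upstream. These matches are letters in a window and say nothing of the factors that bind there.

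After removal of hashtag doublets, cells without a hashtag, cells with few genes, outlying cells and doublet-scored cells, 5050 WT and 5635 CaMKK2 KO cells remained, with a median of 12597 and 11457 unique molecular identifiers (UMIs, each counting 1 captured transcript molecule) per cell. A mouse contributed 1006 to 1665 cells and 11886048 to 20346223 UMIs. Of the kept cells, 11 in each library had a barcode that also occurred in the other. Ptprc, which encodes CD45, had a UMI in 96.3% of WT and 97.9% of CaMKK2 KO cells. Camkk2 stood at 28.1, 29.5, 39.0 and 27.7 CPM (counts per 1000000 UMIs) in the 4 WT mice and at 14.8, 18.3, 13.3 and 22.6 CPM in the 4 CaMKK2 KO mice. The groups did not overlap (31.1 ± 5.31 against 17.3 ± 4.15 CPM, SD, n = 4 each), with a two-sided exact permutation p of 0.0286, the smallest that 4 mice against 4 can give. UMIs come from the 3′ end of a transcript and the exons removed by the deletion are not given in the sources used here, so this level is no full check of the genotype.

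Cells were put into classes by marker genes, none of which is among the 10. The macrophage-like class (8 marker genes, among them Mertk, Adgre1, Fcgr1, the C1q genes and Ms4a7) held 1848 WT and 1469 CaMKK2 KO cells. It needed UMIs of at least 6 of these 8 genes. The classical monocyte-like (cMono-like) class, with at least 4 of 6 monocyte genes, among them Ly6c2, Ccr2, Plac8, Hp and Chil3, and at most 4 of the macrophage genes, held 381 and 964 cells. Cells of the same monocyte gate with 5 macrophage genes are called intermediate (168 and 270 cells). Of the cells in these 3 classes, 236 WT and 335 CaMKK2 KO cells had exactly 6 macrophage genes, 168 and 270 had 5 and 193 and 353 had 4, so many lie near the limits. The microglia-like class (P2ry12, Tmem119, Sall1 and 6 others) held 321 and 153 cells and the type 2 dendritic cell-like (DC2-like) class 252 and 121. Some gate markers differed between the genotypes within their class. Summed over mice, cMono-like Ly6c2 was 1374 (WT) and 3729 CPM (CaMKK2 KO) and Chil3 8408 and 2882 CPM. In microglia-like cells Olfml3 was 874 and 414 CPM and Slc2a5 had a UMI in 51.1% and 3.92% of cells, while P2ry12 had one in 97.8% and 98.0%. The part of this in the results was not tested. Levels below are CPM, the UMIs of a gene per 1000000 UMIs of that class in that mouse. They count 3′ ends and are not scaled to transcript length, so levels are compared between cells of different classes or genotypes and not between genes.

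In both genotypes, most UMIs of the genes other than Timp2 came from the monocyte and macrophage lineage, while for Timp2 this held in the WT library only. For Timp2, macrophage-like cells held 52.6% (WT) and 41.8% (CaMKK2 KO) of the UMIs and microglia-like cells 35.5% and 26.2%. Macrophage-like cells held 94.5% of all Col14a1 UMIs in the WT library and 93.8% in the CaMKK2 KO library. They also held 80.7% and 63.9% of the Mmp14 UMIs and 75.9% and 73.9% of the Mmp12 UMIs. cMono-like cells, a smaller class, held 56.5% and 73.0% of the Vcan UMIs and 48.2% and 47.4% of the Mmp8 UMIs.

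**Figure D1:**
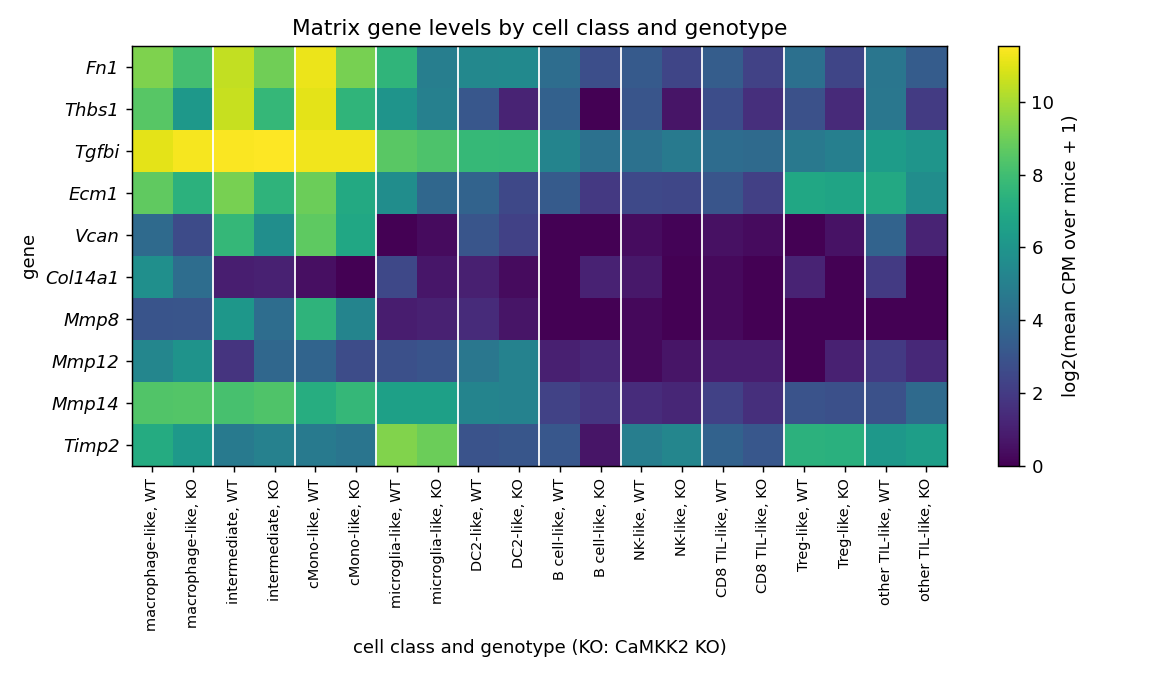
Mean level over mice of each of the 10 genes (rows), as log2(CPM + 1) in colour, in 10 immune classes of WT and CaMKK2 KO mice (columns). Among the 10 classes, Vcan, Mmp8 and Fn1 are highest in cMono-like cells of both genotypes, Thbs1 in cMono-like cells of WT and intermediate cells of CaMKK2 KO mice, Col14a1 and Mmp12 in macrophage-like cells, and Timp2 in microglia-like cells.

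Among the proteases, Mmp14, the membrane-bound collagenase that also activates pro-MMP2, was highest, among the classes given by mouse, in macrophage-like cells, at 259.1 to 419.7 CPM over the 8 mice. That range overlapped the one of intermediate cells (151 to 436 CPM), which in turn overlapped the one of cMono-like cells (106 to 249 CPM). Mmp12, the macrophage elastase, was highest in macrophage-like cells (10.9 to 181 CPM, median 31.9) and next highest in DC2-like cells (0 to 72.9 CPM), and these ranges overlapped. Mmp8, the neutrophil collagenase, was at 15.2 to 419.7 CPM in cMono-like cells, the highest of the classes given by mouse. Neutrophil-like cells, too few for that, held more when summed over mice, at 377 (WT, 22 cells) and 900.5 CPM (CaMKK2 KO, 18 cells) against 106 and 29.2 CPM in cMono-like cells summed the same way. A UMI of it was found in 40.9% and 55.6% of the neutrophil-like cells.

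Timp2, a secreted inhibitor of metalloproteinases, was the only 1 of the 10 whose highest class did not overlap the next over mice of both genotypes. Microglia-like cells of the 8 mice held 336 to 749 CPM, and regulatory T cell-like (Treg-like) cells held 147 to 191 CPM. Treg-like means were 168 ± 20.4 CPM in 3 WT mice and 159.99 ± 12.99 CPM in 3 CaMKK2 KO mice with at least 20 such cells. B cell-like cells lay at 7.71 ± 8.67 CPM (n = 3) and 0.569 ± 1.14 CPM (n = 4). The mean of Timp2 thus differed between these lymphocyte classes, whose mice were only in part the same, and no test was made. Ecm1, a secreted glycoprotein that binds matrix proteins, was also measured in Treg-like cells, with 117 ± 40.5 (WT) and 106 ± 38.1 CPM (CaMKK2 KO, n = 3 each), against 4.90 ± 2.48 and 4.46 ± 1.64 CPM in NK-like cells (n = 4 each). CD4 T cell-like cells of 4 CaMKK2 KO mice held 92.8 ± 29.4 CPM of Timp2 and 71.4 ± 31.8 CPM of Ecm1. T cell-like cells outside the CD8, CD4 and Treg gates held 70.0 ± 24.1 (WT) and 87.6 ± 25.1 CPM (CaMKK2 KO) of Timp2. Their Ecm1 was 125 ± 51.0 and 49.4 ± 17.9 CPM. CD8 T cell-like cells were lower, at 11.5 ± 2.08 and 7.65 ± 2.99 CPM of Timp2 and 7.11 ± 4.13 and 3.48 ± 3.42 CPM of Ecm1.

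Fibronectin (Fn1), versican (Vcan) and thrombospondin 1 (Thbs1) were lower in macrophage-like than in intermediate cells of all 7 mice with values in both. Set against cMono-like cells of the same mouse, intermediate cells held less Vcan in 7, less Fn1 in 6 and less Thbs1 in 2 of the 7 mice. In cMono-like, intermediate and macrophage-like cells the WT means of Thbs1 were 2134, 1507 and 375 CPM and the CaMKK2 KO means 185, 205 and 69.6 CPM. Those of Vcan were 402, 207 and 14.7 CPM (WT) and 115, 50.8 and 5.19 CPM (CaMKK2 KO), and those of Fn1 were 2314, 1407 and 630.4 CPM (WT) and 576, 529 and 268 CPM (CaMKK2 KO). WT mouse 1 entered the cMono-like means but had too few intermediate cells. Over mice of both genotypes, the ranges of neighbouring classes overlapped for Fn1 and Thbs1. For Vcan the intermediate and macrophage-like ranges did not. Within each genotype, the intermediate and macrophage-like ranges of Thbs1 were apart. They were 889 to 2656 and 257 to 505 CPM in WT mice, and 111 to 407 and 53.1 to 80.5 CPM in CaMKK2 KO mice. Those of Fn1 were apart in WT mice (981 to 2153 and 362 to 931 CPM) but overlapped in CaMKK2 KO mice (199 to 851 and 136 to 391 CPM). The cMono-like and intermediate ranges of both genes overlapped within each genotype. Tgfbi, a secreted glycoprotein that binds collagen and integrins, was spread evenly over these classes, at 2918 CPM in intermediate, 2532 in cMono-like and 2389 in macrophage-like cells. It dropped to 349 CPM in microglia-like cells, with no overlap between the macrophage-like and the microglia-like range.

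Macrophage-like and cMono-like cells of the same 8 mice were compared in a fit over all genes with the mouse as a block (edgeR quasi-likelihood test, Benjamini-Hochberg adjusted p under 0.05 as the threshold). In that comparison 58.4% of the 9728 genes tested passed, 40.2% as higher and 18.2% as lower in macrophage-like cells, so a call there is common. Of the 10 genes, 4 were higher and 4 lower. Timp2 was higher in macrophage-like cells by 1.96 ± 0.13 (log2, SE; adjusted p = 1.37e-08), Mmp14 by 0.98 ± 0.09 (2.94e-07) and Mmp12 by 2.52 ± 0.53 (0.000810). Col14a1, a collagen that associates with fibrils, was higher too (1.30e-09), with 2181 UMIs in macrophage-like and 2 in cMono-like cells, a ratio of 299 with a 95% counting interval of 82.7 to 2470. Vcan differed by -4.67 ± 0.27 (3.16e-09), Mmp8 by -3.49 ± 0.38 (1.83e-06), Thbs1 by -1.82 ± 0.25 (1.78e-05) and Fn1 by -1.44 ± 0.17 (4.84e-06). Tgfbi (-0.09 ± 0.06, 0.209) and Ecm1 (0.15 ± 0.13, 0.320) did not pass. TMM scaling, an edgeR setting that sets most genes to no change, moved the median of all genes in this comparison from 0.21 to 0.03 and the calls from 3909 higher and 1768 lower to 2728 and 2670. The 8 calls stayed under it, Tgfbi then also passed as lower (as it did by DESeq2), and the Ecm1 value became -0.02.

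Against microglia-like cells the same fit called all 10 genes, where 53.7% of the 9787 genes tested passed (20.5% higher, 33.2% lower). Timp2 was lower in macrophage-like cells by 2.52 ± 0.14 on the log2 scale (adjusted p = 4.74e-10), and the other 9 were higher. The largest differences after Vcan, which had 534 UMIs against 1 (ratio 67.2, 95% counting interval 12.02 to 2660), were those of Col14a1 (3.57 ± 0.29), Ecm1 (3.26 ± 0.25) and Mmp8 (2.94 ± 0.41). In microglia-like cells Col14a1 had 31 WT and 1 CaMKK2 KO UMIs and Mmp8 had 4 and 3, so the sizes of these differences rest on few UMIs. Tgfbi was higher by 2.83 ± 0.15, Mmp12 by 2.69 ± 0.30, Fn1 by 2.22 ± 0.28, Thbs1 by 2.18 ± 0.28 and Mmp14 by 1.95 ± 0.14. TMM scaling moved the median of all genes here from -0.15 to -0.03 and the calls from 2010 higher and 3245 lower to 2529 and 2559.

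A droplet also catches RNA that floats free in the cell suspension, and lymphocytes give a measure of it for genes they are not known to make. NK-like cells had median depths of 7420 to 9965 UMIs in the WT mice and 5469 to 10498 in the CaMKK2 KO mice. Thbs1 in them was 7.15, 7.03, 7.51 and 7.32 CPM in the WT mice and 0.643, 0.979, 0.610 and 0 CPM in the CaMKK2 KO mice. The genotypes did not overlap (7.25 ± 0.21 against 0.558 ± 0.408 CPM, two-sided exact permutation p = 0.0286), which 3.54% of all genes compared in NK-like cells also did in that direction, and the share of NK-like cells with a Thbs1 UMI was 8.07% and 0.642%. Thbs1 in DC2-like cells (7.75 ± 1.46 WT, 1.21 ± 2.41 CaMKK2 KO) was near the NK-like level in CPM. DC2-like cells were deeper, however, with medians of 15047 to 19798 UMIs over the 8 mice. A Thbs1 UMI was found in 11.1% of WT and 1.65% of CaMKK2 KO DC2-like cells. Whether these UMIs came from free RNA was not tested. In cMono-like, macrophage-like and microglia-like cells Thbs1 was above the NK-like level in every mouse. Fn1 in NK-like cells was 8.69 ± 3.13 (WT) and 4.26 ± 3.25 CPM (CaMKK2 KO).

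**Figure D2:**
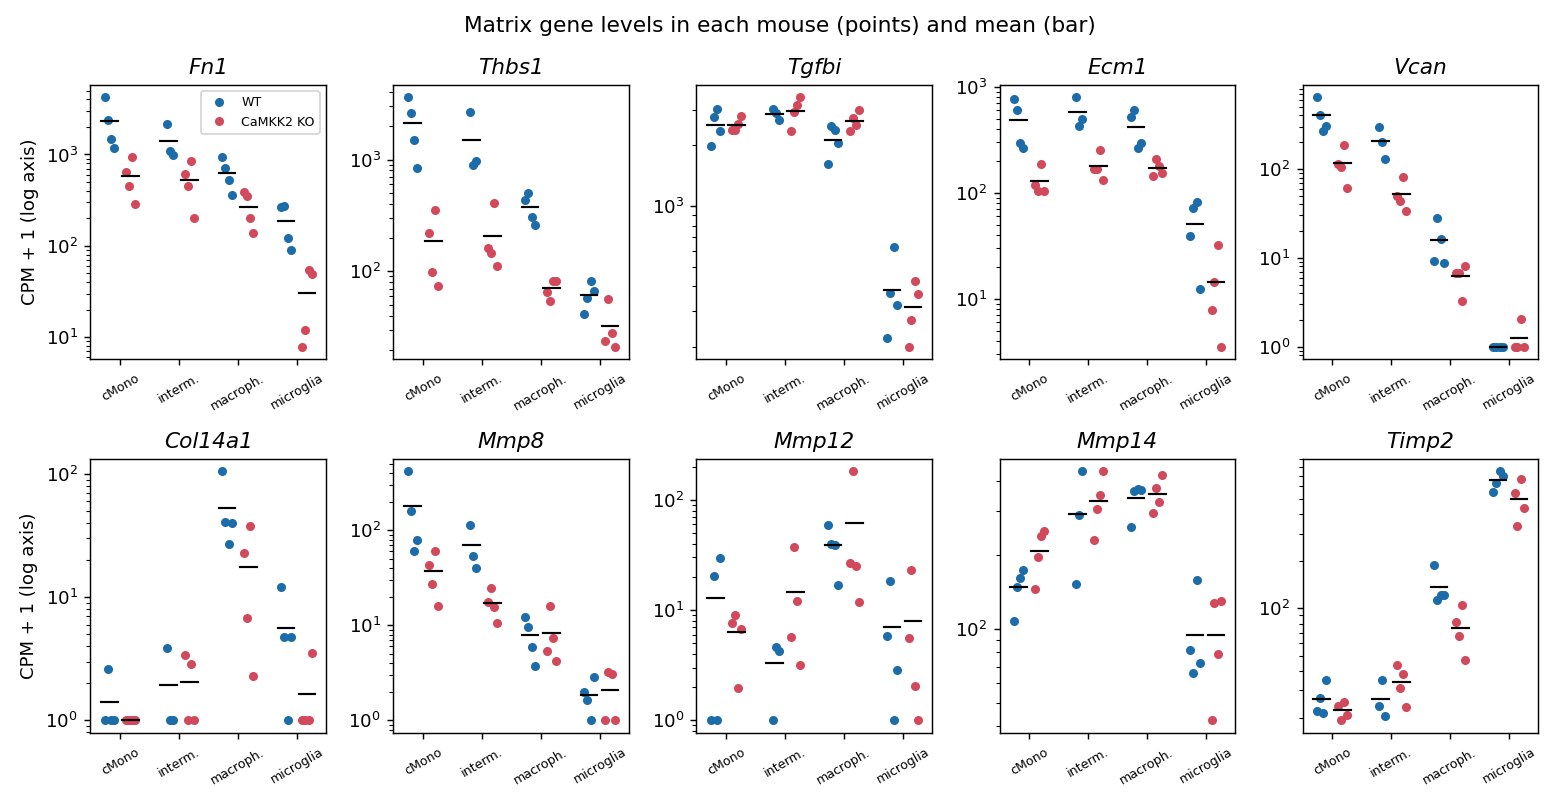
Level of each of the 10 genes (CPM + 1, log axis) in cMono-like, intermediate, macrophage-like and microglia-like cells. Every point is 1 mouse, 4 per genotype (3 WT mice in intermediate cells), and the bar is the mean. Thbs1, Ecm1 and Vcan separate the genotypes in cMono-like, intermediate and macrophage-like cells, while the points of Tgfbi and Mmp14 mix.

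The question of the CaMKK2 KO comparison was which of these genes differed between the genotypes within 1 class. In macrophage-like cells, 2 of the 10 were lower in CaMKK2 KO mice (Thbs1 and Ecm1) and none was higher, against 1.37% of the 9417 genes tested that were lower and 0.881% that were higher. The median log2 difference of the 10 was -1.05, and that of all genes was -0.09. As the 10 were chosen with earlier results of these data known, such comparisons with all genes are a description, here and in the other classes. TMM scaling turned the split of all calls from 83 higher and 129 lower to 107 higher and 83 lower.

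Thbs1, the matricellular protein that restrains vessel growth and activates latent TGF-beta, had the clearest difference. In macrophage-like cells its level was 430.3, 505, 308 and 257 CPM in the WT mice and 64.4, 53.1, 80.5 and 80.4 CPM in the CaMKK2 KO mice. The lowest WT mouse was above the highest CaMKK2 KO mouse, and the means were 375 ± 113 and 69.6 ± 13.3 CPM (SD, n = 4 each), a CaMKK2 KO level of 0.186 times WT. The log2 difference was -2.43 ± 0.23 (SE; edgeR adjusted p = 0.000792), and it passed in all 18 alternative settings tried, with adjusted p of at most 0.0134.

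Ecm1 was 519, 602, 265 and 293 CPM in the WT and 142, 206, 179.6 and 153 CPM in the CaMKK2 KO macrophage-like cells, again without overlap. Its difference was -1.30 ± 0.27 (edgeR adjusted p = 0.0402). It passed in 10 of 18 settings and was lost under TMM scaling (adjusted p = 0.0540) and without any 1 of WT mice 1 and 2 and CaMKK2 KO mice 1, 2, 3 and 4 (0.0510 to 0.116).

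Timp2 and Vcan did not overlap between the genotypes in macrophage-like cells but missed the threshold. Timp2 was 187, 112, 120.2 and 121 CPM in WT and 80.2, 65.1, 104 and 45.8 CPM in CaMKK2 KO mice (difference -0.86 ± 0.25, adjusted p = 0.0964). Vcan lay between 7.80 and 27.3 CPM in WT and between 2.24 and 7.05 CPM in CaMKK2 KO mice (-1.53 ± 0.47, 0.115). In all, 4 of the 10 genes lay below WT in every CaMKK2 KO mouse, against 9.89% of all genes tested, and none lay above it in every mouse, against 4.16%.

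Fn1, which builds the fibrils on which other matrix proteins assemble, overlapped between the genotypes in macrophage-like cells. It was 931, 705, 523 and 362 CPM in WT and 391, 347, 199 and 136 CPM in CaMKK2 KO mice, a difference of -1.23 ± 0.37 (adjusted p = 0.108). Col14a1 varied widely within both genotypes, at 104, 39.9, 26.1 and 39.0 CPM in WT and 22.0, 5.81, 36.8 and 1.28 CPM in CaMKK2 KO mice (-1.57 ± 0.69, 0.217). Mmp12 depended on 1 animal. CaMKK2 KO mouse 2 had 181 CPM against 10.9 to 25.9 CPM in the other 3, and WT mice had 15.8 to 58.0 CPM. The difference of 0.70 ± 0.77 (0.619) turned to -0.84 without that mouse.

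Mmp14, Tgfbi and Mmp8 did not pass the test in macrophage-like cells. Mmp14 averaged 339 ± 53.3 (WT) and 354 ± 54.3 CPM (CaMKK2 KO), a difference of 0.06 ± 0.15 (adjusted p = 0.844). Tgfbi was 2131 ± 384 and 2647 ± 268 CPM (0.31 ± 0.15, 0.243), and Mmp8 6.90 ± 3.76 and 7.23 ± 5.36 CPM (0.10 ± 0.53, 0.936). The genotypes overlapped for all 3.

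**Figure D3:**
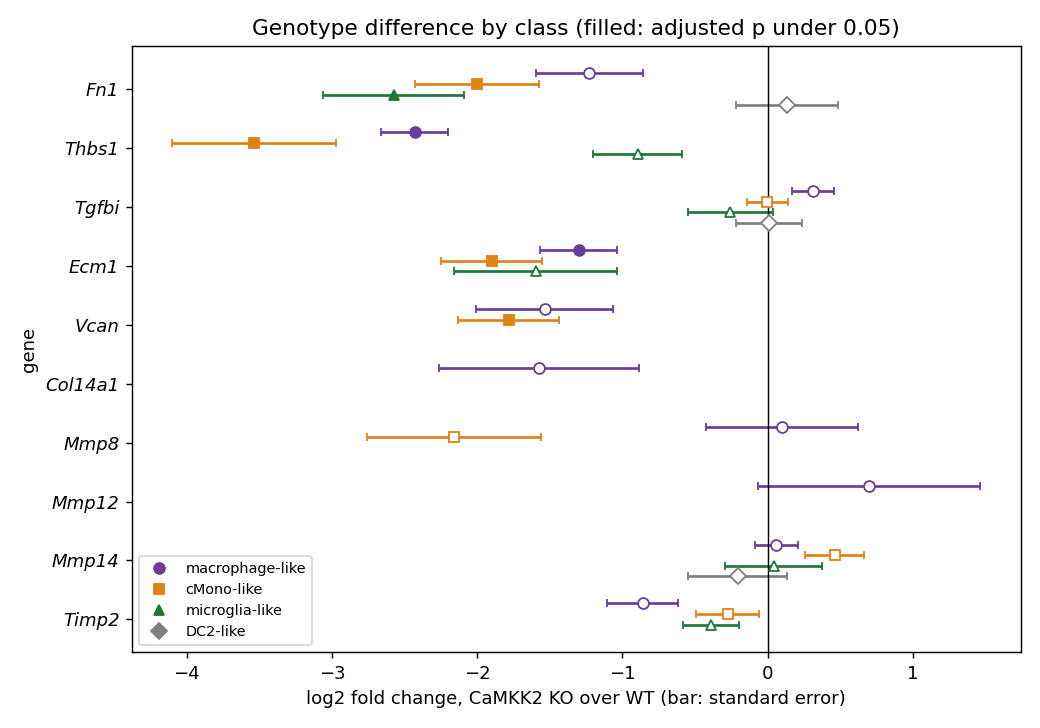
Difference between CaMKK2 KO and WT mice (log2 fold change, horizontal axis, bars 1 standard error) for each gene in 4 classes, 4 mice per genotype. Filled symbols passed an adjusted p of 0.05. They are Thbs1 and Ecm1 in macrophage-like, Thbs1, Fn1, Ecm1 and Vcan in cMono-like and Fn1 in microglia-like cells, and all lie to the left of 0.

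In cMono-like cells 8 of the 10 genes had enough UMIs to be tested. Of these, 4 were lower in CaMKK2 KO mice (Thbs1, Fn1, Ecm1 and Vcan) and none was higher, where 0.707% of the 6086 genes tested were lower and 0.92% higher. The median difference of the 8 was -1.84 and that of all genes -0.02. WT mouse 1 had 19 cells in this class, against 67 to 197 in the other WT and 102 to 369 in the CaMKK2 KO mice, so its values rest on few cells.

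Thbs1 was 3592, 2604, 1505 and 835 CPM in WT and 219.9, 98.4, 351 and 72.7 CPM in CaMKK2 KO cMono-like cells. The groups did not overlap and the CaMKK2 KO mean was 0.0869 times the WT mean (185 ± 128 against 2134 ± 1215 CPM). The difference was -3.54 ± 0.56 (edgeR adjusted p = 0.0120). It was -3.18 (0.0167) without WT mouse 1, and it missed the threshold without WT mouse 2 (0.0560) or without CaMKK2 KO mouse 2 (0.0516).

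Fn1 was 4213, 2399, 1459 and 1187 CPM in WT and 636, 454, 926 and 289 CPM in CaMKK2 KO cMono-like cells. These values did not overlap, and the difference was -2.001 ± 0.428 (edgeR adjusted p = 0.0467). It passed in 9 of 18 settings. Without WT mouse 1 it was -1.55 (0.0625), and it was also lost without WT mouse 2 or 3 or without CaMKK2 KO mouse 1, 2 or 4 (0.0722 to 0.153).

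Ecm1 was 776, 605, 296 and 264 CPM in WT and 119, 104, 187 and 104 CPM in CaMKK2 KO cMono-like cells, with no overlap (-1.90 ± 0.35, edgeR adjusted p = 0.0241). Vcan, the large proteoglycan that binds hyaluronan, was 638, 405, 265 and 302 CPM in WT and 113, 105, 183 and 60.5 CPM in CaMKK2 KO cells, also with no overlap (-1.78 ± 0.35, 0.0328). Ecm1 passed in 11 and Vcan in 12 of 18 settings. Leaving out WT mouse 2 or any of CaMKK2 KO mice 1, 2 and 4 ended both calls, at adjusted p of 0.0686 to 0.103 for Ecm1 and 0.0736 to 0.127 for Vcan.

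Mmp8 in cMono-like cells was 419.7, 158, 59.1 and 78.8 CPM in WT mice, and 42.2, 26.3, 60.3 and 15.2 CPM in those without CaMKK2 (-2.16 ± 0.60, adjusted p = 0.104). The highest value came from WT mouse 1, whose 19 cells also held 2327 CPM of 6 neutrophil marker genes in sum, of which Retnlg was at 0, against 283 to 1246 CPM in the other 7 mice. The part of neutrophil RNA in this value was not tested. Mmp14 (146 ± 28.6 and 206 ± 47.8 CPM, 0.46 ± 0.20, 0.310), Timp2 (25.4 ± 6.16 and 21.3 ± 2.79 CPM, -0.28 ± 0.22, 0.619) and Tgfbi (2531 ± 465 and 2533 ± 194 CPM, -0.00 ± 0.14) overlapped between the genotypes. Mmp12 had 45 and 68 UMIs and Col14a1 2 and 0 in this class, too few for the fit. In cMono-like cells 4 of the 8 genes tested lay below WT in every CaMKK2 KO mouse, against 4.9% of all genes tested.

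Intermediate cells were not fitted, since WT mouse 1 had only 11. In the remaining 3 WT and 4 CaMKK2 KO mice, Thbs1 was 2656, 889 and 975 CPM in WT and 160, 144, 407 and 111 CPM in CaMKK2 KO mice. Thbs1, Fn1, Ecm1, Vcan and Mmp8 lay below WT in every CaMKK2 KO mouse, 5 of the 10 genes against 10.6% of the 3402 genes compared there. Of the 10, Col14a1, Mmp12 and Timp2 had fewer than 200 UMIs in this class, the minimum of the fits, so the 2 shares are of unlike sets. Tgfbi (2867 ± 187 and 2969 ± 473 CPM) and Mmp14 (292 ± 143 and 329.7 ± 86.4 CPM) overlapped in these cells as in their neighbours.

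The macrophage-like and cMono-like differences were set against each other by an interaction term with the mouse as a block. None of the 10 genes passed (edgeR quasi-likelihood test), where 0.154% of 9728 genes did, and 7 of the 10 had an unadjusted p under 0.05, as had 10.6% of all genes. The nearest was Mmp8 (2.21 ± 0.50, adjusted p = 0.0794), whose genotype difference was 0.10 in macrophage-like and -2.16 in cMono-like cells, followed by Tgfbi (0.31 ± 0.09, 0.208) and Thbs1 (1.15 ± 0.36, 0.232). With the count minimum lowered to 10 UMIs the fit called 2 of the 10, Mmp8 (adjusted p = 0.00188) and Thbs1 (0.0246), and 0.855% of 13689 genes.

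In microglia-like cells 6 of the 10 genes were tested and 1, Fn1, was lower in CaMKK2 KO mice, where 0.741% of the 4860 genes tested were lower and 0.432% higher. Fn1 was 266, 271, 119.6 and 88.7 CPM in WT and 6.88, 11.1, 53.0 and 48.0 CPM in CaMKK2 KO mice. The groups did not overlap, as for 7.26% of the genes tested in that direction (-2.58 ± 0.49, edgeR adjusted p = 0.0258). CaMKK2 KO mice 1 and 2 were lowest, at 6.88 and 11.1 CPM against 3.22 and 2.94 CPM in NK-like cells of the same mice. The call was lost without WT mouse 1 or 2 or CaMKK2 KO mouse 1, 2 or 4 (0.0516 to 0.0798). CaMKK2 KO mice had 25 to 60 microglia-like cells each and WT mice 34 to 140.

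The other genes tested in microglia-like cells overlapped between the genotypes. Timp2, whose level was higher here than in the other classes, was 547, 629, 749 and 697 CPM in the WT animals against 543, 336, 670.4 and 432 CPM in the CaMKK2 KO animals (-0.39 ± 0.19, adjusted p = 0.357). Thbs1 was 61.1 ± 16.6 and 31.4 ± 16.2 CPM (-0.90 ± 0.31, 0.181) and Ecm1 50.1 ± 31.6 and 13.5 ± 12.6 CPM (-1.60 ± 0.56, 0.190). Tgfbi (-0.26 ± 0.29) and Mmp14 (0.04 ± 0.33) had adjusted p-values of 0.712 and 0.969. TMM scaling moved the median of all genes in this class from -0.12 to -0.00 and the calls from 21 higher and 36 lower to 25 and 17, and Fn1 stayed lower under it (-2.46, 0.0339).

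In DC2-like cells 3 of the 10 genes were tested and none passed (edgeR quasi-likelihood test, 0 at an unadjusted p under 0.05, and 0 by DESeq2), where 0.755% of the 4107 genes tested were lower and 0.804% higher. Fn1 averaged 41.4 ± 21.2 (WT) and 44.1 ± 5.95 CPM (CaMKK2 KO), differing by 0.14 ± 0.35. Tgfbi was 208 ± 51.9 and 207 ± 60.7 CPM (0.01 ± 0.23), and Mmp14 36.2 ± 14.4 and 33.7 ± 16.1 CPM (-0.21 ± 0.34). CaMKK2 KO mouse 4 had 15 cells in this class.

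The share of cells with a UMI was compared after every cell was thinned to 5000 UMIs, which left out 19 WT and 38 CaMKK2 KO cMono-like and 38 and 32 macrophage-like cells below that depth. Among cMono-like cells, 79.1% ± 11.9 held Thbs1 in WT and 26.3% ± 10.7 in CaMKK2 KO mice (SD, n = 4; 83.5% and 29.4% of all cells before thinning), and a cell with the transcript held 12.97 ± 5.51 and 3.38 ± 0.86 UMIs of it. Both the share and the amount per positive cell were thus lower. Fn1 went from 92.8% ± 5.61 to 64.5% ± 13.3, Ecm1 from 61.1% ± 5.93 to 31.8% ± 5.57 and Vcan from 53.6% ± 9.45 to 25.4% ± 4.44. Before thinning these shares were 93.4% and 69.6% for Fn1, 76.1% and 43.0% for Ecm1 and 64.8% and 35.0% for Vcan. Tgfbi was in 98.5% and 98.0% of cells.

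Macrophage-like cells showed the same order for Thbs1, at 42.8% ± 5.39 in WT and 17.1% ± 1.16 in CaMKK2 KO mice after thinning (56.0% and 28.3% before), with 4.81 ± 0.74 and 2.41 ± 0.49 UMIs per positive cell. Fn1 was in 55.1% ± 12.5 and 40.1% ± 9.89, Timp2 in 39.4% ± 6.39 and 25.3% ± 6.51 and Ecm1 in 61.6% ± 8.88 and 44.8% ± 3.54 of cells (66.6% and 53.2%, 66.3% and 50.8%, and 80.2% and 67.7% before thinning). Some genes sat in a minority of cells. Without thinning, Mmp12 had a UMI in 6.33% of WT and 8.65% of CaMKK2 KO macrophage-like cells, yet 1 cell held up to 136 UMIs of it. These 2 shares pool the cells of 4 mice, carry no error between mice and were not compared by a test. The tenth of WT macrophage-like cells with the most Thbs1 held 64.5% of its UMIs, against 24.1% for Tgfbi and 26.1% for Mmp14.

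**Figure D4:**
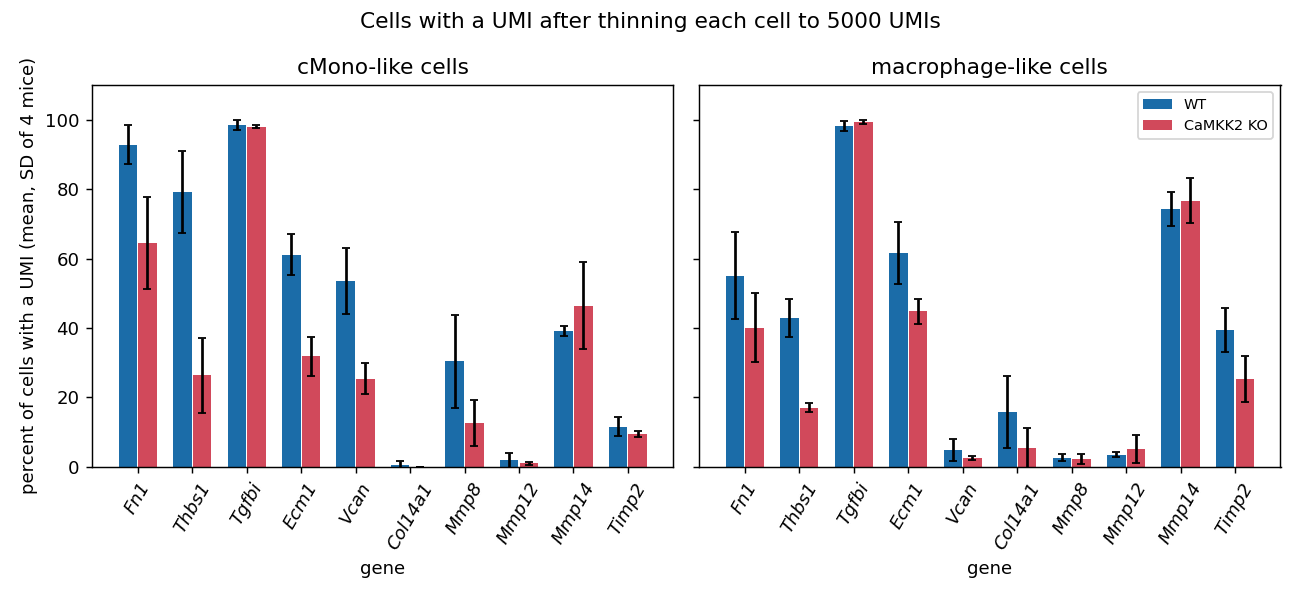
Share of cMono-like and macrophage-like cells with at least 1 UMI of each gene after thinning to 5000 UMIs per cell (bars, mean of 4 mice, error bars SD). Thbs1 is in 79.1% of WT and 26.3% of CaMKK2 KO cMono-like cells and in 42.8% and 17.1% of macrophage-like cells, while Tgfbi is at 98.0% to 99.2% in all 4 groups.

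The genotypes filled the classes from different groups of cells, found by clustering without the 10 genes. WT macrophage-like cells were mostly in clusters 0 (41.2%) and 1 (40.9%), and CaMKK2 KO macrophage-like cells in clusters 13 (52.3%), 5 (23.0%) and 2 (14.4%). For cMono-like cells the main clusters were 4 in WT (64.3%) and 3 (53.5%) and 2 (33.4%) in CaMKK2 KO mice, while microglia-like cells of both genotypes were mostly in cluster 10 (89.4% and 85.6%) and DC2-like cells in cluster 8 (96.0% and 88.4%). Within a cluster, UMIs summed over mice gave Thbs1 levels of 2485 (WT) and 536 CPM (CaMKK2 KO) in cluster 4, 421 and 152 in cluster 3, 167 and 46.0 in cluster 0 and 257 and 72.9 in cluster 13. Cluster 5 went the other way, with 19.4 CPM in 113 WT cells and 30.8 CPM in 338 CaMKK2 KO cells. Ecm1 was lower in CaMKK2 KO cells of all these clusters, but other genes varied. Vcan was 343.4 (WT) and 136.9 CPM (CaMKK2 KO) in cluster 4 but 149.5 and 128 in cluster 3. Timp2 was 173.1 and 125.1 CPM in cluster 0, 110.8 and 101.2 in cluster 5, and 100.3 and 219.8 in cluster 1 (35 CaMKK2 KO cells). Col14a1 was 103.5 and 79.1 CPM in cluster 0 and 40.2 and 54.96 in cluster 5. These sums have no replicate error and no test, and some rest on few cells, 33 WT cells in cluster 3 and 52 CaMKK2 KO cells in cluster 4.

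Markers of cells other than leukocytes were low in all 4 tested classes. Of 5 fibroblast and pericyte genes, which would mark a classical source of collagens and fibronectin, Lum was at 0 in all 4 classes and the summed level was at most 4.59 CPM in any mouse. The 5 glioma and astrocyte genes reached at most 3.16 CPM and the 2 neuron genes 1.34 CPM. Oligodendrocyte genes were at 11.5 to 85.0 CPM and endothelial genes at 0 to 57.2 CPM, the latter highest in cMono-like cells. Their part in the results was not tested.

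Macrophage-like cells were then ranked by 4 scores within each mouse, and the top 25% (56 to 142 cells a mouse) was set against the rest, as a description without a test. By a monocyte-derived score (Ly6c2, Chil3 and Plac8), Vcan was 8.05 times as high in the top 25% (33.1 against 4.11 CPM), Thbs1 3.41 times and Ecm1 2.01 times, each in 8 of 8 mice. Fn1 was 1.95 times as high in 7 of 8 mice. Mmp12 (0.0698 times) and Col14a1 (0.122 times) were lower in the top 25% of all 8 mice, which had a median depth of 12468 UMIs against 17291 in the rest. Thus Vcan and Thbs1 lay with the monocyte genes, and Mmp12 and Col14a1 away from them.

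By a hypoxia score (Adm, Egln3, Ndrg1, Bnip3, Slc2a1 and Hilpda), Mmp12 was 9.74 times as high in the top 25% (149 against 15.3 CPM, 7 of 8 mice). Fn1 was 2.16 times (8 of 8), Thbs1 2.71 times (7 of 8) and Ecm1 1.45 times (8 of 8) as high, and Mmp14 0.983 times. By a lipid-associated score (Gpnmb, Fabp5, Lpl and Cd63), Mmp12 (4.12 times) and Timp2 (2.25 times) were higher in all 8 mice, and Tgfbi (0.754 times) was lower in all 8. By an interferon response score (Ifit1, Ifit2, Ifit3, Rsad2 and Isg15), Vcan was 2.84 times as high in 7 of 8 mice, and Timp2 (0.774 times) and Col14a1 (0.629 times) were lower in all 8. Depths of top 25% and rest were 14981 and 15620 UMIs for hypoxia, 16897 and 15093 for the lipid-associated and 14833 and 15947 for the interferon score.

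**Figure D5:**
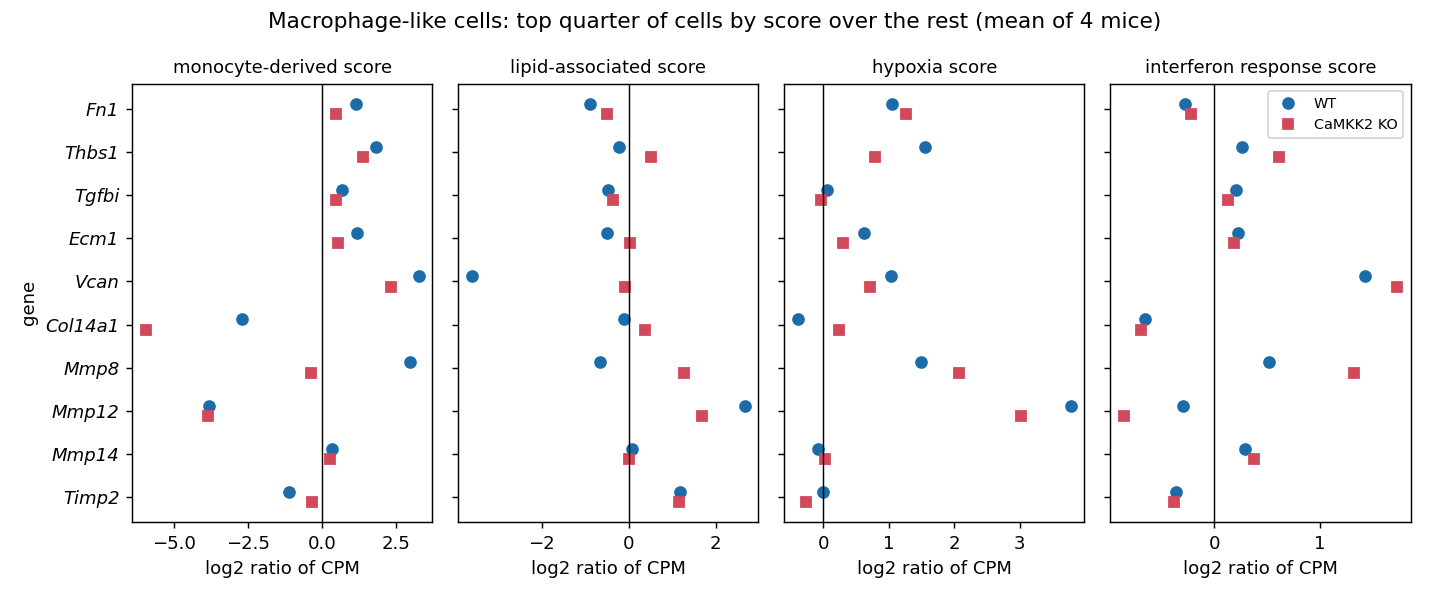
Log2 ratio of CPM between the top 25% of macrophage-like cells by each of 4 scores and the rest, mean of 4 mice per genotype (circles WT, squares CaMKK2 KO). Mmp12 and Col14a1 lie left of 0 for the monocyte-derived score in both genotypes, and Mmp12 lies farthest right for the hypoxia score.

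Cell by cell, correlations between the genes were weak. They are Spearman's rho within 1 mouse, given as the median over mice, after cells were thinned to 5000 UMIs and those below that depth left out. Cells of 1 mouse share a library. In macrophage-like cells of 8 mice the highest were Fn1 with Thbs1 (0.31, range -0.05 to 0.44), Fn1 with Ecm1 (0.25) and Tgfbi with Ecm1 (0.22). In cMono-like cells, where 7 mice had at least 20 cells, Tgfbi rose with Ecm1 (0.33) and with Mmp14 (0.27), and Fn1 with Vcan (0.22). Mmp14 went against Fn1 (-0.27) and against Vcan (-0.27), below 0 in all 7 mice.

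Over 23 class means of the genotypes, the genes most like each of the 10 were picked from 11176 others by Pearson's r of log2(CPM + 1). Fn1 was most like F13a1, the coagulation transglutaminase (r = 0.98), followed by Lyz2 and Cd14. Vcan was most like Plcb1 (0.98), Mmp8 like Ms4a8a and S100a8 (0.96 and 0.95), Thbs1 like 1200007C13Rik and Clec4d (0.92 and 0.91), and Ecm1 like Carhsp1 (0.89). Tgfbi followed Lyz2 (0.98), Mmp14 Atp6v0c (0.98), Mmp12 Dab2 (0.89), Col14a1 Negr1 (0.88) and Timp2 Tfpi (0.89). Classes of 1 genotype share mice and a library, so these values are a description.

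Beyond the 10, a list of 103 other matrix genes in the tables was followed in the same fits. In macrophage-like cells 1.37% of all 9417 genes tested were lower in CaMKK2 KO mice. Of the 103, 40 were tested there and 1 was lower. It was Plod1, which hydroxylates lysines of collagen, with 62.7 ± 13.8 (WT) and 22.8 ± 3.25 CPM (CaMKK2 KO, -1.45 ± 0.16, edgeR adjusted p = 0.00191). In microglia-like cells, where 0.741% of all genes tested were lower, 21 of the list were tested. The membrane protease Adam9 was the 1 that was lower (66.5 ± 12.4 and 34.05 ± 5.55 CPM, -0.97 ± 0.20, 0.0419). In cMono-like cells, where 0.707% of all genes tested were lower, 26 of the list were tested. The urokinase receptor Plaur was the 1 that was lower (493 ± 67.6 and 273 ± 44.5 CPM, -0.86 ± 0.16, 0.0304). These calls were not followed through the alternative settings. None of 17 passed in DC2-like cells, and none was higher in any class. The median difference over the list was -0.13, -0.19, -0.20 and 0.38 in macrophage-like, microglia-like, cMono-like and DC2-like cells, against -0.09, -0.12, -0.02 and 0.05 for all genes. The largest group, 13 proteases tested in macrophage-like cells, had a median of -0.05. In that class the median was -0.74 for protease inhibitors and receptors (5 tested) and -0.31 for structural and matricellular genes (8 tested). It was 0.12 for crosslinking and modifying genes (7 tested) and 0.15 for matrix receptors (7 tested).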

How the data were processed

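Count tables of 2 droplet libraries (WT and CaMKK2 KO, 10x Chromium 3′ v3.1) held whole-number UMI counts that the authors deposited without normalization, after bcl2fastq 2.20, Cell Ranger 4.0.0 with STAR 2.7.5c and mm10, per the submitters' processing notes. Hashtag counts, also deposited by the authors, gave the mouse of each cell. The hashtag counts stand as further rows in the same 2 tables, and the 2 samples labelled as hashtag libraries have no table of their own here.

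From these counts, mice were assigned with HTODemux (Seurat 5.3.0, quantile 0.99). In WT and CaMKK2 KO, 667 and 508 of 6689 and 7271 barcodes were hashtag doublets, 48 and 67 had no hashtag, 5 and 4 had fewer than 200 genes, and 744 and 922 were outlying by genes, UMIs or mitochondrial percentage (isOutlier, scuttle 1.12.0, 3 median absolute deviations). The 175 and 135 cells with the highest Scrublet scores (scanpy 1.11.5) were removed as same-mouse doublets. Classes were gated on marker genes that include none of the 10, and the numbers of markers needed were set after seeing the data but without the values of the 10. Not every marker gene of the gates is reported here. Sums of UMIs over the cells of a class in a mouse entered edgeR 4.0.16 (quasi-likelihood test, class total as library size, genes with at least 200 UMIs, Benjamini-Hochberg over all genes tested, R 4.3.3). A standard error is the log2 difference over the root of its F statistic. The study tested cells one by one, and here mice are the replicates. Single values were compared by exact permutation tests (scipy 1.17.1). Other classes are given for mice with at least 20 cells. The fits were also run on simulated counts with the same dispersion for every gene. That run does not measure the reliability of the calls given here.

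Depth was 11886048 to 20346223 UMIs a mouse, and intervals cover counting error only. Alternatives were TMM scaling, DESeq2 1.42.0, a minimum of 10 UMIs, outlying cells kept, limma 3.58.1 on equally weighted cells with a pseudocount of 1, a stricter gate, classes from clusters, a block, and each mouse left out. Leaving out shared barcodes and keeping doublet-scored cells were added after seeing the data. The genes and lists were chosen with earlier results of these data known. All 10 genes are named, with up to 6 called genes per class of the matrix list, those of largest change, and 3 most alike genes.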

Additional observations from a re-analysis of the deposited data

Results flagged for a closer look

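Of 44 groups of 4 mice (a gene, a class and a genotype with at least 200 UMIs), 5 held 1 mouse far from the other 3, a gap that chance gives in about 1 of 20 groups. In macrophage-like cells, Mmp12 was 181 CPM in CaMKK2 KO mouse 2 and 10.9 to 25.9 CPM in the others, Mmp14 was 259.1 CPM in WT mouse 1 against 363 to 369 CPM, and Timp2 was 187 CPM in WT mouse 1 against 112 to 121 CPM. In microglia-like cells, Mmp14 was 157 CPM in WT mouse 3 against 65.1 to 80.5 CPM. In DC2-like cells, Tgfbi was 297 CPM in CaMKK2 KO mouse 2 against 165 to 183 CPM.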

How the results depend on the processing

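The 8 calls among the 10 genes between macrophage-like and cMono-like cells and the 10 calls against microglia-like cells kept their direction and side of the threshold in all alternatives tried, the fit without the mouse block included, and Tgfbi also passed with TMM scaling and DESeq2 in the first. Between genotypes, the members called changed more. In macrophage-like cells they went from 2 (with 2.25% of all genes called) to 1 with TMM scaling (2.02%) and 5 with DESeq2 (6.65%). In microglia-like cells they went from 1 (1.17% of all genes) to 2 with outlying cells kept (1.42%). They were also 2 with doublet-scored cells kept, where the share of all genes is not given here, so that count stands without a background. In cMono-like cells they went from 4 to 1 with equally weighted cells, 2 with the stricter gate and 2 with the replicate block. The calls over all genes fell in those settings too, as given below. The interaction called 2 of the 10 with a minimum of 10 UMIs. With 1 mouse left out the counts of called members were 1 to 2 in macrophage-like, 0 to 1 in microglia-like and 0 to 4 in cMono-like cells and 0 to 3 for the interaction.

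Over all genes, DESeq2 called 626 instead of 212 of 9417 genes in macrophage-like and 100 instead of 57 of 4860 in microglia-like cells. It called 226 instead of 99 of 6086 in cMono-like and 127 instead of 64 of 4107 in DC2-like cells. A minimum of 10 UMIs gave 88, 162 and 112 in microglia-like, cMono-like and DC2-like cells, and 117 instead of 15 for the interaction. In cMono-like cells equally weighted cells gave 36, the stricter gate 57 and classes from clusters 444. The interaction called 32 with TMM scaling and 28 with outlying cells kept. With 1 mouse left out the counts were 109 to 380, 23 to 80, 27 to 171 and 20 to 219 in the 4 classes in that order and 2 to 110 for the interaction. The cause was not tested.

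Hashtag numbers mark no shared animal, and the correlation of same-numbered mice was -0.52 to 0.23. With the hashtag number as a replicate block, 123, 46 and 25 genes were called in macrophage-like, cMono-like and DC2-like cells, and without the mouse block the interaction called 0 (replicate block removed). Under the block the calls of Ecm1 in macrophage-like (adjusted p = 0.0589) and cMono-like cells (0.0788), Vcan in cMono-like cells (0.0562) and Fn1 in microglia-like cells (0.102) were lost, while Fn1 in macrophage-like cells (0.00473) and Ecm1 in microglia-like cells (0.0197) passed.

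Some differences changed sign, none of them called with the settings used in the report. In macrophage-like cells Mmp12 was -0.17 and Mmp8 -0.071 with equally weighted cells, -0.036 and -0.014 with the replicate block, and Mmp8 -0.26 with classes from clusters. With 1 mouse left out they ranged from -0.84 to 1.02 (Mmp12), -0.050 to 0.14 (Mmp14) and -0.52 to 0.46 (Mmp8). In microglia-like cells Mmp14 was -0.115 with equally weighted cells and -0.030 with the replicate block (-0.13 to 0.34 with a mouse left out), and Tgfbi 0.17 with classes from clusters (-0.46 to 0.066). In cMono-like cells Timp2 was 0.25 with classes from clusters. Tgfbi there was 0.019 with TMM scaling, 0.0157 with DESeq2, 0.0141 with equally weighted cells, 0.0158 with the replicate block, 0.020 with shared barcodes left out and 0.0041 with doublet-scored cells kept (-0.10 to 0.097). In DC2-like cells Fn1 was -0.0017 with doublet-scored cells kept (-0.096 to 0.37). Tgfbi there was -0.047 with TMM scaling, -0.037 with DESeq2, -0.040 with the stricter gate, -0.064 with outlying cells kept, -0.076 with equally weighted cells, -0.013 with the replicate block and -0.073 with doublet-scored cells kept (-0.22 to 0.13). Ecm1 between macrophage-like and cMono-like cells was -0.017 with TMM scaling. The interaction ranged from -1.67 to 2.96 for Col14a1 and from -0.19 to 0.76 for Vcan with a mouse left out.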

Other observations

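Spp1, the matrix phosphoprotein osteopontin and a gene of the wider matrix list, differed widely without passing the test. In macrophage-like cells its level was 1485 ± 741 (WT) and 337 ± 334 CPM (CaMKK2 KO, SD, n = 4 each, log2 difference -2.13 ± 0.66, edgeR quasi-likelihood adjusted p = 0.116). In microglia-like cells it was 471 ± 263 and 87.5 ± 122 CPM (-2.44 ± 0.72, 0.129). Spp1 was named after its values were seen. Sparc, another matricellular gene, was at about the same level in both genotypes of microglia-like cells, 1846 ± 427 and 1815 ± 507 CPM, and was also named after its values were seen.

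Non-classical monocyte-like cells, which were too few to be fitted, had Thbs1 at 1164 and 382 CPM in the 2 WT mice with at least 20 cells and at 4.96, 9.49 and 18.5 CPM in 3 CaMKK2 KO mice. Fn1 in the same cells was 489 and 346 CPM in WT and 263, 94.9 and 108 CPM in CaMKK2 KO mice.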
